A study of Mus musculus with 12 samples.

Results

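Macrophage identity genes are genes whose RNA marks tissue macrophages, and 10 of them were followed here through all 12 libraries of a mouse Impdh2 study, out of 55900 gene identifiers in the deposited count tables. The 10 were chosen by their symbols, C1qa, C1qb, C1qc, Csf1r, Laptm5, Pf4, Mrc1, Adgre1, Mertk and Slco2b1. They were chosen from their levels in these same libraries, with the forelimb and culture contrasts in view, so their values are given as a description and support nothing beyond themselves. All 10 passed the filter on low counts in both tissues.

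The study deleted Impdh2, which encodes an enzyme of guanine nucleotide synthesis, in mouse limb mesenchymal progenitors (Prx-cKO) or in the myeloid lineage that gives rise to osteoclasts (LysM-cKO), and measured RNA by sequencing. Forelimbs were taken at embryonic day E12.5 from WT and Prx-cKO embryos. Marrow cells of WT and LysM-cKO mice were grown for 3 days with L929 supernatant standing in for 20 ng/ml of M-CSF, the growth factor of macrophages. The protocol, worded alike for every culture sample, then reseeds them for osteoclast formation with 40 ng/ml of RANKL, the cytokine that drives it. Each of the 6 groups held 2 libraries, with 28892215 to 69466572 counts in the forelimb and 16009146 to 19221865 in the cultures. The culture titles R0D3 and R40D3 are not spelled out in the labels and are used as names. Whether the R0D3 cultures received RANKL is not stated there. Prx names the driver expressed in limb mesenchyme, so the deletion was not directed at the macrophages of the limb, whereas LysM names lysozyme M, a gene of myeloid cells. The labels do not say whether 2 replicates of a group came from separate embryos or mice, so the spread between them may be technical. Whole forelimbs hold macrophages as a minor part among mesenchyme, blood and vessels, and the cultures had been selected for macrophages by adhesion and M-CSF.

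Macrophages of the embryo arise from blood progenitors and settle in the limb bud, where they clear dying cells. Csf1r, the receptor for M-CSF and interleukin 34, keeps them alive. C1q, the recognition molecule of the classical complement pathway, is assembled from the products of C1qa, C1qb and C1qc and is made largely by macrophages. Mertk, a receptor tyrosine kinase, binds dying cells through the bridging proteins Gas6 and protein S. When M-CSF and RANKL act together, macrophage precursors fuse into osteoclasts.

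The 3 C1q genes lie side by side on the minus strand of chromosome 4 in GRCm38, in the order C1qb, C1qc, C1qa, from 136880129 to 136898803, a stretch of 18675 bases. Mertk lies on the plus strand of chromosome 2 (128698956 to 128802894) and Slco2b1 on the minus strand of chromosome 7 (99657804 to 99711340). Upstream windows are shown for C1qb and C1qc, the members with the largest forelimb log2 fold changes among those with an entry, and for Mertk and Slco2b1, which stood apart from the rest in the forelimb and in the cultures. The sequences are RefSeq's for GRCm38.p6, written 5′ to 3′ on the gene's strand and ending before the first annotated exon. They cover chr4:136886201-136886450 for C1qb, chr4:136893066-136893164 for C1qc, chr2:128698665-128698914 for Mertk and chr7:99711341-99711590 for Slco2b1. Capitals mark GAGGAA, the core bound by the myeloid factor PU.1, or TGCTGA, the half-site of MAF factors, each searched on both strands.
C1qb: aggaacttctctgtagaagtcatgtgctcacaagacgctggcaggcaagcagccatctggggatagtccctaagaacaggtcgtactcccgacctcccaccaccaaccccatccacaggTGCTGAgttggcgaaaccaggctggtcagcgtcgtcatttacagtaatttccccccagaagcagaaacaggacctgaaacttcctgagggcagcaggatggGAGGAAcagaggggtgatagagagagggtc
C1qc: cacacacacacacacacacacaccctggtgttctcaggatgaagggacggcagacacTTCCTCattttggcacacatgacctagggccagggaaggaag
Mertk: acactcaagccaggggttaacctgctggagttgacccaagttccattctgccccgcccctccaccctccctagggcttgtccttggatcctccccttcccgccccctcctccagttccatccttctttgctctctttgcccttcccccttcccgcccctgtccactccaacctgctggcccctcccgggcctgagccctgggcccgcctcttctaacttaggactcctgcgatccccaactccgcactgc
Slco2b1: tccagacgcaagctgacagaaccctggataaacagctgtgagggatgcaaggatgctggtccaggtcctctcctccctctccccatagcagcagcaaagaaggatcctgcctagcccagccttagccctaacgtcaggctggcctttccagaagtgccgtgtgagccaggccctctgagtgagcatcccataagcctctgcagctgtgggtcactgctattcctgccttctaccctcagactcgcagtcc
In the C1qb window the MAF half-site and the PU.1 core do not overlap, and in the C1qc window the PU.1 core is read on the opposite strand. No copy of either motif was present in the Mertk or Slco2b1 window. Of the 7 members whose windows were searched, 4 held the PU.1 core (C1qb, C1qc, Pf4 and Mrc1) and 2 the MAF half-site (C1qb and Laptm5). No window of C1qa, Csf1r or Adgre1 was searched. Among 32851 promoters of the table, 23.3% of 250-base windows held the PU.1 core and 16.1% the MAF half-site. The window of C1qc was 99 bases long, and 9.91% of windows of that length held the core. Mrc1 had 228 bases, a length at which 21.2% of windows held the core, and Laptm5 had 59 bases, a length at which 3.61% held the half-site. These matches describe letters in a window and not bound sites.

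In the E12.5 forelimb, 9 of the 10 genes were higher in both Prx-cKO libraries than in both WT libraries, and Mertk was lower in both. None was called at an adjusted p under 0.05 by edgeR's quasi-likelihood test, which called 0% of the 19987 genes tested (smallest adjusted p 0.118). Among all genes tested, 22.2% were higher and 21.0% lower without overlap between the groups. The median log2 fold change of the 10 was 1.03, against −0.03 over all genes tested. These contrasts chose the genes, so nothing is read from the counts. In bulk libraries, more or fewer cells of a type and more or less RNA per cell cannot be told apart.

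C1qa was at 4.80 and 4.47 CPM (counts scaled to a common library size) in WT replicates 1 and 2 and at 11.2 and 9.55 CPM in Prx-cKO replicates 1 and 2. C1qb stood at 9.17 and 8.49 CPM in WT libraries and 24.9 and 26.8 CPM in Prx-cKO. C1qc had 7.13 and 6.16 CPM in WT against 19.1 and 17.0 CPM in Prx-cKO. For all 3 chains of C1q the gap between genotypes was larger than the gap within a genotype. This describes values that chose the genes, and edgeR called none of the 3. Mean C1qb was 8.83 ± 0.481 CPM in WT and 25.9 ± 1.34 CPM in Prx-cKO (SD, n = 2), with a fitted log2 difference of 1.55 (SE 0.19). The log2 fold change was 1.44 (SE 0.22) for C1qc and 1.16 (SE 0.25) for C1qa. Leaving out any 1 library left the C1qb value between 1.5 and 1.61.

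Csf1r measured 7.21 and 8.58 CPM in the WT pair and 15.8 and 16.1 CPM in the knockouts, with a fitted log2 difference of 1.01 (SE 0.22). The 2 knockout libraries were nearly equal and both lay above WT. The Csf1r exons overlap those of Hmgxb3 on the other strand over 873 bases, and whether strand was used in counting is not given in the sources used here, so its counts are uncertain to that extent. Laptm5, which encodes a lysosomal membrane protein of blood-derived cells, stood at 9.33 and 9.74 CPM in WT libraries and 16.5 and 15.8 CPM in Prx-cKO. Its log2 fold change was 0.76 (SE 0.20), with little spread inside either group.

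Pf4, which encodes a chemokine stored in platelets and also made by macrophages, had 11.5 and 8.75 CPM in WT against 14.1 and 15.6 CPM in Prx-cKO. Its groups were close but did not overlap, and the log2 fold change was 0.56 (SE 0.24). Markers of megakaryocytes and platelets were measured beside it, and 0 of their 11 tested genes separated the groups in either direction. Their summed level was 28.9 to 34.6 CPM in WT and 28.2 to 35.6 CPM in Prx-cKO, with Itga2b and Ppbp the most abundant.

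Mrc1, the mannose receptor CD206, measured 3.85 and 7.84 CPM in the WT pair and 11.3 and 8.16 CPM in the knockouts. The second WT library almost reached the second knockout library, and the log2 fold change of 0.70 (SE 0.41) became 0.26 without WT replicate 1 and 1.34 without WT replicate 2. Adgre1, which encodes the macrophage surface antigen F4/80, stood at 1.63 and 3.36 CPM in WT libraries and 5.77 and 8.18 CPM in Prx-cKO. These values rest on 69 and 241 reads in WT and 166 and 418 reads in Prx-cKO. The log2 fold change of Adgre1 was 1.46 (SE 0.44), and ran from 1.03 without WT replicate 1 to 2.11 without WT replicate 2. Slco2b1, a transporter of organic anions, had 2.20 and 2.65 CPM in WT against 4.21 and 5.85 CPM in Prx-cKO, with a fitted log2 difference of 1.06 (SE 0.34). Its exons overlap 2 antisense genes, which makes its counts uncertain in the same way as those of Csf1r.

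Mertk had the opposite sign. It measured 57.8 and 59.6 CPM in the WT pair and 32.8 and 26.7 CPM in the knockouts, or 58.7 ± 1.32 against 29.7 ± 4.27 CPM (SD, n = 2). The log2 fold change was −0.98 (SE 0.18), between −1.12 and −0.84 when any 1 library was left out. In this tissue Mertk had the sign opposite to that of the other genes under whose name it is grouped.

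**Figure D1:**
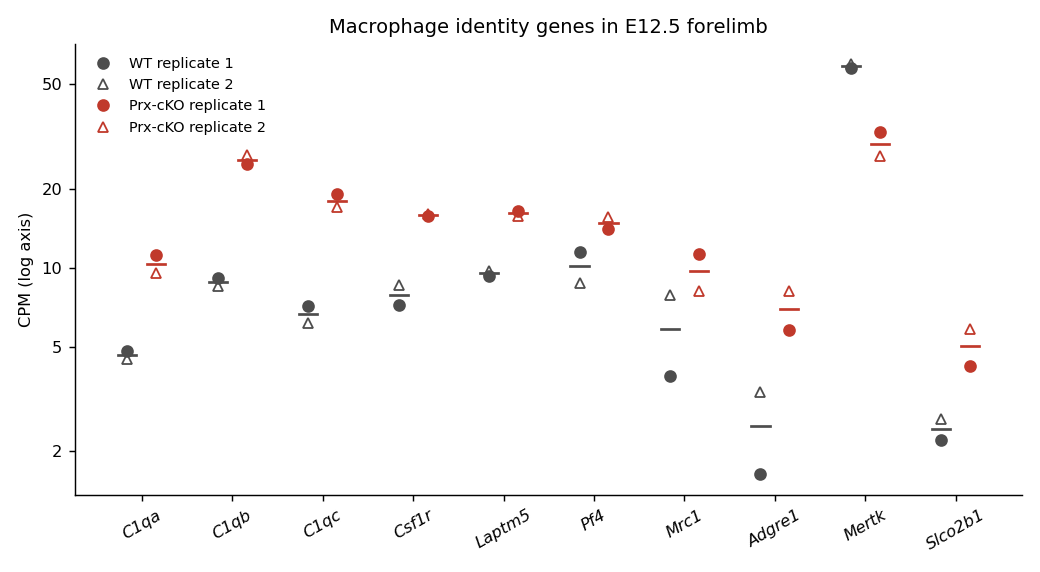
CPM (log axis) of the 10 genes in the 4 forelimb libraries, WT in grey and Prx-cKO in red, with filled circles for replicate 1, open triangles for replicate 2 and a bar at each group mean. Both red points lie above both grey points for 9 genes, with Mrc1 the closest (7.84 CPM in WT replicate 2 against 8.16 CPM in Prx-cKO replicate 2), and below them for Mertk.

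The call depended on the tool. DESeq2 on the same genes called 5 of the 10, namely C1qa, C1qb, C1qc and Csf1r higher and Mertk lower, where it called 1.97% of all genes tested. Without WT replicate 1, edgeR called C1qb, C1qc and Mertk, 3 of the 10, where it called 2.84% of genes. With all 4 libraries, 8 of the 10 had an unadjusted edgeR p under 0.05, as did 2095 of the 19987 genes tested. Impdh2 was at 260.4 and 272 CPM in WT forelimb and at 169.7 and 199 CPM in Prx-cKO, and its exons overlap those of Ndufaf3 over 48 bases. Xist was high in WT replicate 1 and Prx-cKO replicate 2, and the Y-linked Ddx3y was read in the other libraries. Each genotype thus had 1 library of each kind, from different embryos.

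The genes that work with these members were taken as lists, also chosen with results of these data known. Among ligands of Csf1r and transcription factors of the myeloid lineage, 4 of 10 tested genes were higher in Prx-cKO without overlap and 5 were lower. Over all genes tested these shares were 22.2% and 21.0%. EdgeR called 0 of the list. The median log2 fold change of that list was −0.08. Spi1, which encodes PU.1, stood at 2.62 and 2.45 CPM in WT libraries and 8.0 and 7.42 CPM in Prx-cKO, with a fitted log2 difference of 1.60 (SE 0.28). Maf, a factor of macrophages and also of other cells, was lower without overlap, at 18.7 ± 5.02 CPM in WT and 12.6 ± 0.182 CPM in Prx-cKO (SD, n = 2). Irf8 and Cebpb, factors of the myeloid lineage, had log2 fold changes of 0.85 and 0.67. The ligand gene Csf1 had 13 and 11.2 CPM in WT against 9.04 and 8.87 CPM in Prx-cKO.

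Of 13 other complement genes tested, 2 were higher and 2 lower without overlap, with a median log2 fold change of 0.06. The shares over all genes tested were 22.2% higher and 21.0% lower, so these counts were not above them. C3ar1, the receptor for C3a, measured 2.48 and 2.63 CPM in the WT pair and 5.11 and 6.28 CPM in the knockouts. C1s1, a protease that joins C1q in the C1 complex, stood at 2.08 and 1.39 CPM in WT libraries and 1.11 and 0.529 CPM in Prx-cKO. C1s1 rests on 88 and 100 reads in WT and 32 and 27 reads in Prx-cKO, with a fitted log2 difference of −1.15 (SE 0.54). The recognition chains and this protease had opposite fitted signs, and edgeR called none of them.

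Of 16 tested genes of dead-cell engulfment, 6 were higher and 2 lower without overlap, with a median of 0.03. Over all genes tested, 22.2% were higher and 21.0% lower. Gas6, which bridges dying cells to Mertk, had 7.68 and 9.92 CPM in WT against 19.0 and 22.0 CPM in Prx-cKO, with a fitted log2 difference of 1.22 (SE 0.24). Pros1, which encodes the other bridging protein, measured 19.0 and 19.9 CPM in the WT pair and 21.5 and 18.4 CPM in the knockouts, so that its groups overlapped. Stab1, a scavenger receptor, stood at 17.3 and 19.1 CPM in WT libraries and 36.7 and 42.1 CPM in Prx-cKO. Axl, a receptor of the same family as Mertk, had 80.3 and 96.7 CPM in WT against 75.1 and 73.4 CPM in Prx-cKO. Tyro3, the third of that family, measured 82.5 and 108 CPM in the WT pair and 63.4 and 85.7 CPM in the knockouts. Axl was lower without overlap by a small margin, and Tyro3 overlapped.

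Further markers of resident macrophages had positive fold changes throughout. All 16 tested had a log2 fold change above 0 and 14 were higher without overlap, with a median of 1.00. Over all genes tested, 22.2% were higher and 21.0% lower without overlap. Ms4a7 stood at 0.591 and 0.808 CPM in WT libraries and 2.64 and 3.29 CPM in Prx-cKO. Lyve1 had 0.283 and 0.585 CPM in WT against 1.81 and 1.53 CPM in Prx-cKO, which are low levels. In the WT macrophage cultures its mean was 0 CPM at R0D3 and 0.353 CPM at R40D3. Apoe measured 16.9 and 33.6 CPM in the WT pair and 70.7 and 67.9 CPM in the knockouts. The summed level of the list was 215 to 251 CPM in WT and 347 to 368 CPM in Prx-cKO. Genes shared by many myeloid cells had a median of 0.64, with 11 of 15 higher and 0 lower without overlap. Lyz2 stood at 4.54 and 5.50 CPM in WT libraries and 10.8 and 9.96 CPM in Prx-cKO, and Fcgr3, an Fc receptor, at 2.67 and 2.48 CPM in WT and 8.10 and 5.99 CPM in Prx-cKO. EdgeR called none of these genes.

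Markers of other cells were measured too, and edgeR called none of them. Among all genes tested, 22.2% were higher and 21.0% lower without overlap. Of 12 endothelial genes, 11 were higher without overlap and 0 lower, with a median log2 fold change of 0.40 and a summed level of 209 to 219.8 CPM in WT and 289.8 to 298 CPM in Prx-cKO. Of 10 limb mesenchyme genes, 6 were lower and 1 higher without overlap, with a summed level of 1756 to 1969.7 CPM in WT and 1242 to 1324 CPM in Prx-cKO. The erythroid sum was 3841 to 5229.8 CPM in WT and 4055 to 4736 CPM in Prx-cKO. Stromal markers summed to 1949 to 1951 CPM in WT and 1699 to 1767 CPM in Prx-cKO. Mast cell markers had a median of −0.70, with 2 of 4 tested lower without overlap. Most of their level was Kit, at 22.1 ± 3.08 CPM in WT and 14.7 ± 1.07 CPM in Prx-cKO (SD, n = 2). The mast markers Mcpt4 and Tpsb2 were at 0 in every forelimb library, so these values do not show a change of mast cells. Neutrophil markers summed to 1.54 to 3.43 CPM in WT and 2.05 to 3.35 CPM in Prx-cKO, with Ly6g and Retnlg at 0. Lymphoid and dendritic markers summed to 16.3 to 17.2 CPM in WT and 17.7 to 21.5 CPM in Prx-cKO, with Ms4a1 and Xcr1 at 0. Zbtb46 alone had a mean of 12.6 CPM in each genotype, and 8 of the 12 genes were under 1 CPM in every forelimb library. The part of these levels in the fold changes of the macrophage genes was not tested. Osteoclast markers were split, with 3 of 10 tested higher and 3 lower without overlap. Dcstamp, needed for osteoclast fusion, was at 0 in every forelimb library.

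**Figure D2:**
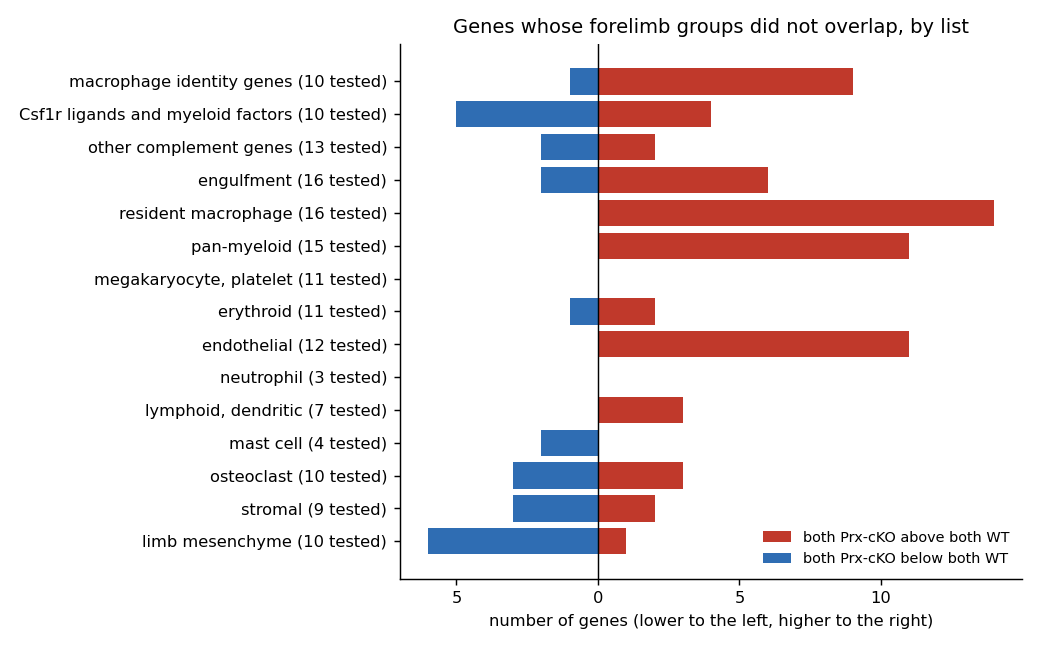
Number of genes in each list whose 2 Prx-cKO forelimb libraries lay both above (red, right) or both below (blue, left) the 2 WT libraries, with the number tested beside the list's name. Among all 19987 genes tested 22.2% lay above and 21.0% below, and the resident macrophage (14 of 16), endothelial (11 of 12) and pan-myeloid (11 of 15) lists had the most genes above.

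All 10 genes had a higher level in the WT R0D3 cultures than in WT forelimb. The summed level of the 10 was 13572 and 13585 CPM in the WT R0D3 libraries and 115 and 119.7 CPM in WT forelimb. Resident macrophage markers, led by Ctsb and Apoe, summed to 43012 and 46423 CPM in WT R0D3. Of the erythroid markers, 7 of 11 were at 0 in every culture library, and the limb marker Hoxd13 was at 0 as well. The forelimb and culture tables were scaled separately, so the following ratios are only rough. WT forelimb CPM was 0.183% of WT R0D3 CPM for Adgre1, 0.263% for Mrc1, 0.410% for C1qb and 0.575% for Laptm5. It was 1.80% for Slco2b1, 5.44% for Pf4 and 28.1% for Mertk. C1qa, C1qc and Csf1r lay between Mrc1 and C1qb. Mertk stood apart as the gene whose limb level was nearest to its level in cultured macrophages.

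**Figure D3:**
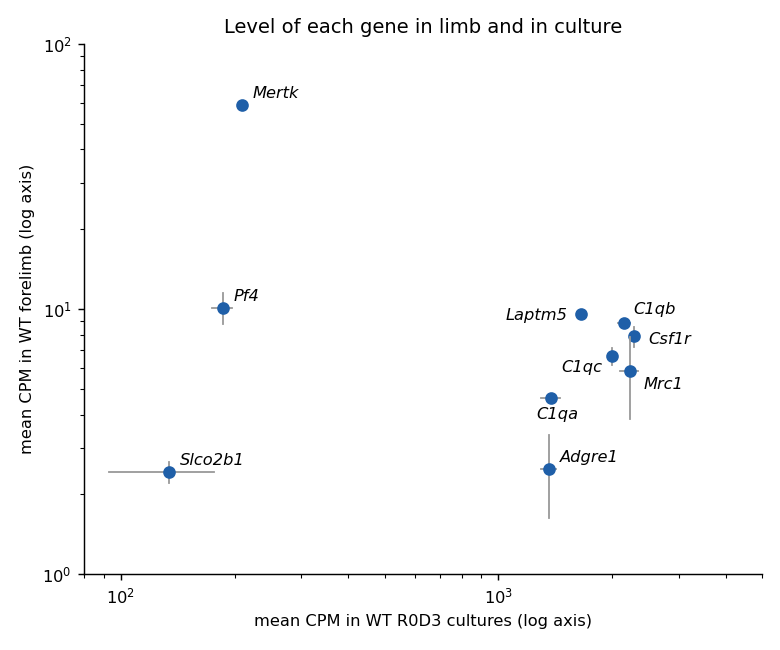
Mean CPM in WT forelimb against mean CPM in WT R0D3 cultures (both log axes) for each of the 10 genes, with grey lines joining the 2 replicates in each direction. Mertk lies highest, at 58.7 CPM in limb and 209 CPM in culture, and Adgre1 and Slco2b1 lie lowest, at 2.49 and 2.42 CPM in limb.

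Levels of different genes were compared per kilobase of exon. In WT forelimb Pf4 (14.0 CPM per kb) and Mertk (13.5 CPM per kb) were highest and overlapped each other. C1qb (8.11), C1qa (4.46), C1qc (3.44), Laptm5 (2.52) and Csf1r (1.37 CPM per kb) followed, each without overlap with the next. Mrc1 (0.918) and Adgre1 (0.770 CPM per kb) overlapped, and Slco2b1 (0.407 CPM per kb) was lowest. In Prx-cKO forelimb C1qb led at 23.8 CPM per kb and Mertk, at 6.86 CPM per kb, lay below C1qb, Pf4, C1qa and C1qc. In all 4 culture groups the order began with C1qb, C1qa and C1qc and ended with Mertk and Slco2b1, although C1qb and C1qa overlapped in LysM-cKO R40D3. WT R0D3 cultures held 1979 CPM per kb of C1qb, 1324 of C1qa and 1033 of C1qc, against 48.1 of Mertk and 22.5 of Slco2b1. Laptm5, Adgre1 and Csf1r, at 438, 419.7 and 396 CPM per kb, came between, and Laptm5 overlapped Adgre1 as Adgre1 did Csf1r. Mrc1 (349 CPM per kb) and Pf4 (257 CPM per kb) stood just below them.

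R40D3 was compared with R0D3 first in WT cultures. There 8 of the 10 genes were lower without overlap, 1 (Csf1r) was higher, and Pf4 overlapped, where 29.2% of the 14030 genes tested were lower and 32.9% higher. The median log2 fold change of the 10 was −0.44, against 0.01 over all genes. Mertk was the 1 member called by edgeR, where 16.9% of genes were. Osteoclast markers gave the scale of the change in these cultures, with 14 of 14 called higher and a median log2 fold change of 7.65.

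Mertk was at 204 and 213 CPM in WT R0D3 and at 151 and 144 CPM in WT R40D3, with a fitted log2 difference of −0.50 (SE 0.09). In LysM-cKO cultures it was at 215 and 233 CPM at R0D3 and at 196 and 178 CPM at R40D3, with a fitted log2 difference of −0.26 (SE 0.09). The groups did not overlap in either genotype, and the replicates were close. The WT call of Mertk was lost without WT R0D3 replicate 1 (−0.53), WT R0D3 replicate 2 (−0.47) or WT R40D3 replicate 2 (−0.51). Slco2b1 was at 176 and 92.9 CPM in WT R0D3 and at 36.5 and 14.0 CPM in WT R40D3. In LysM-cKO it was at 189 and 96.6 CPM at R0D3 and at 27.1 and 6.53 CPM at R40D3. Within each of the 4 groups replicate 2 was the lower library, and every R40D3 library lay below every R0D3 library. The log2 fold change of Slco2b1 was −2.40 (SE 0.69) in WT and −3.07 (SE 0.72) in LysM-cKO, the most negative of the 10 in both. It ran from −3.29 (without WT R40D3 replicate 1) to −1.87 (without WT R0D3 replicate 1) in WT, and from −4.45 (without LysM-cKO R40D3 replicate 1) to −2.44 (without LysM-cKO R40D3 replicate 2) in LysM-cKO.

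C1qb was at 2074 and 2233 CPM in WT R0D3 and at 1634 and 1427 CPM in WT R40D3, with a fitted log2 difference of −0.49 (SE 0.17). In LysM-cKO it was at 1878 and 1972 CPM at R0D3 and at 1702 and 1251 CPM at R40D3, with a fitted log2 difference of −0.38 (SE 0.17). C1qc had nearly the same values of change, −0.50 (SE 0.17) in WT and −0.41 (SE 0.17) in LysM-cKO. The LysM-cKO values were −0.62 for C1qb and −0.65 for C1qc without LysM-cKO R40D3 replicate 1, and −0.22 and −0.24 without replicate 2. C1qa differed least of the chains, at 1295 and 1459 CPM in WT R0D3 and 1294 and 1064 CPM in WT R40D3. Its log2 ratio was −0.0018 in replicate 1 and −0.46 in replicate 2, and the fitted log2 fold change was −0.22 (SE 0.19), or −0.40 without WT R40D3 replicate 1 and −0.13 without replicate 2.

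Csf1r was the member with the opposite sign. It was at 2328 and 2243 CPM in WT R0D3 and at 2873 and 2558 CPM in WT R40D3, with a fitted log2 difference of 0.25 (SE 0.19), which was 0.14 without WT R40D3 replicate 1. In LysM-cKO it was at 2191 and 1655 CPM at R0D3 and at 2716 and 2066 CPM at R40D3, where the groups overlapped although the log2 ratio was positive in each replicate (0.31 and 0.32). That LysM-cKO value of Csf1r ran from 0.10 without R40D3 replicate 1 to 0.52 without R0D3 replicate 1. Pf4 was at 197 and 174 CPM in WT R0D3 and at 178 and 106 CPM in WT R40D3. In LysM-cKO it was at 266 and 227 CPM at R0D3 and at 152 and 91.7 CPM at R40D3, with a fitted log2 difference of −1.01 (SE 0.29) against −0.38 (SE 0.29) in WT. Leaving out R40D3 replicate 1 took the WT value of Pf4 to −0.83 and leaving out R40D3 replicate 2 took it to −0.10.

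Mrc1 was at 2343 and 2103 CPM in WT R0D3 and at 1697 and 1372 CPM in WT R40D3, with a fitted log2 difference of −0.53 (SE 0.26). In LysM-cKO its libraries overlapped, at 2811 and 1942 CPM at R0D3 and at 2401 and 1505 CPM at R40D3, and the log2 fold change ran from −0.66 without R40D3 replicate 1 to −0.0021 without R0D3 replicate 1. Adgre1 was at 1299 and 1419 CPM in WT R0D3 and at 1150.0 and 1036 CPM in WT R40D3, with a fitted log2 difference of −0.31 (SE 0.12). In LysM-cKO it was at 1306 and 1374 CPM at R0D3 and at 1427 and 1294 CPM at R40D3, with a fitted log2 difference of 0.02 (SE 0.12). Laptm5 was nearly level, at 1611 to 1707 CPM in the 4 R0D3 libraries and 1479.8 to 1528 CPM in the 4 R40D3 libraries, which did not overlap.

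In LysM-cKO cultures 6 of the 10 genes were lower at R40D3 without overlap and 0 were higher, where 22.5% of all genes were lower and 27.3% higher. The median log2 fold change of the 10 was −0.27, against 0.01 over all genes. Slco2b1 was the 1 member called, where 10.1% of genes were. That call of Slco2b1 was lost without any 1 of 5 libraries, both of WT R0D3 (−3.07 each), both of LysM-cKO R0D3 (−2.52 without replicate 1 and −3.47 without replicate 2) and LysM-cKO R40D3 replicate 2 (−2.44). Fits with the replicate number as a block gave more calls in both genotypes. In WT the block called 6 of the 10 (Adgre1, C1qb, C1qc, Mertk, Mrc1 and Slco2b1), all lower, where 28.3% of genes were called. In LysM-cKO it called 3 (Mertk, Pf4 and Slco2b1), all lower, where 21.3% were.

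**Figure D4:**
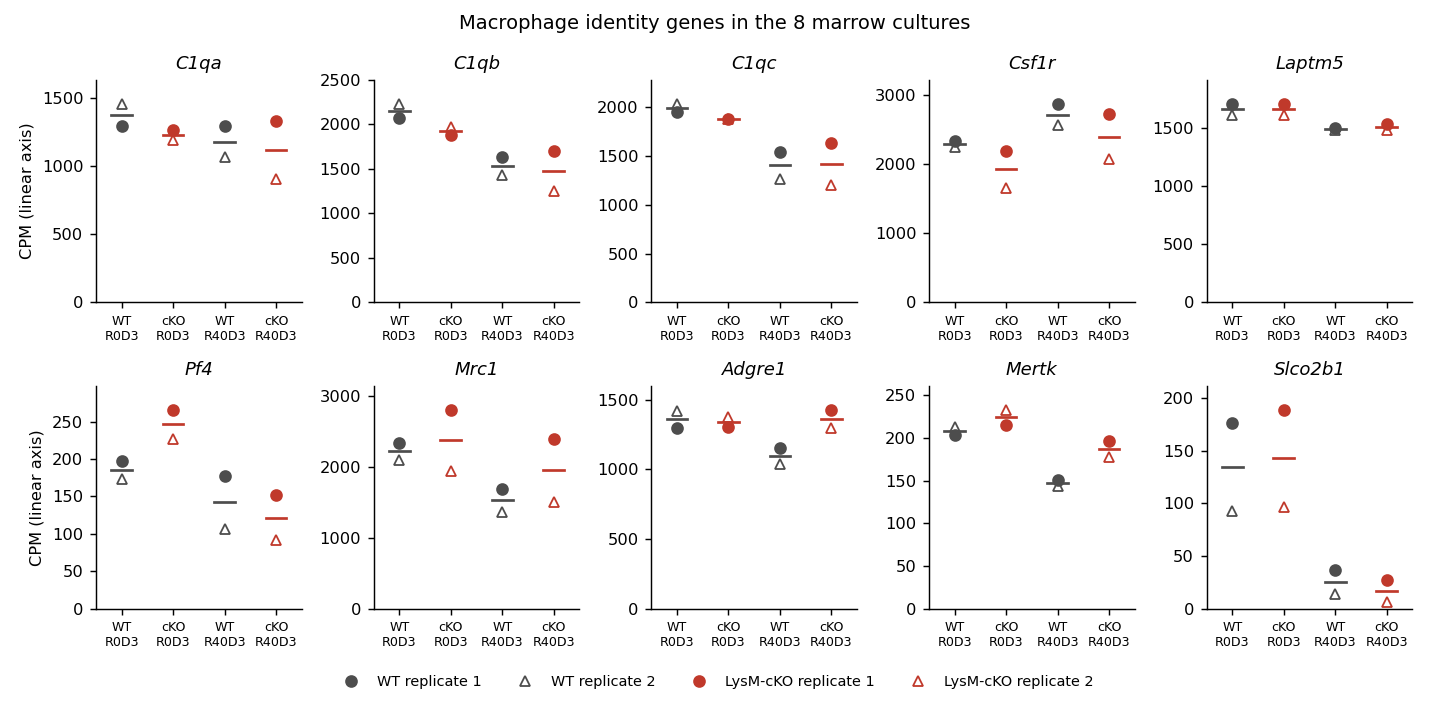
CPM (linear axes from 0, 1 panel per gene) in the 8 culture libraries, WT in grey and LysM-cKO (cKO) in red, with filled circles for replicate 1, open triangles for replicate 2 and a bar at each group mean. Slco2b1 is at most 36.5 CPM in the R40D3 libraries and at least 92.9 CPM in the R0D3 libraries, Csf1r has its higher means at R40D3, and Laptm5 is nearly level.

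The lists around these genes changed in the cultures as follows, with calls by edgeR (adjusted p under 0.05), which over all genes tested called 16.9% in WT and 10.1% in LysM-cKO. Of 17 tested resident macrophage markers, 5 fell and 0 rose in WT, and 6 fell and 0 rose in LysM-cKO. Trem2, a lipid-sensing receptor, fell from 867 and 940.1 CPM to 470.5 and 430.2 CPM in WT, with a fitted log2 difference of −1.0 (SE 0.12, edgeR adjusted p 0.00199). Of 15 pan-myeloid genes, 9 fell and 1 rose in WT, and 5 fell and 1 rose in LysM-cKO. The riser in both was Lcp2, an adaptor of immune receptor signalling, from 78.4 and 93.5 CPM to 150.3 and 169 CPM in WT. Among Csf1r ligands and myeloid factors, 1 rose and 3 fell in WT. Spi1 rose from 312 and 314 CPM to 428 and 489 CPM (log2 fold change 0.55, SE 0.10). The factors Cebpa (−0.64, SE 0.13) and Irf8 (−0.67, SE 0.14) were among those that fell. In LysM-cKO 1 rose and 2 fell, and Spi1 (0.44, SE 0.10) and Cebpa (−0.54, SE 0.13) were again called.

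Of 15 tested engulfment genes, 2 rose and 6 fell in WT, and 2 rose and 5 fell in LysM-cKO. Cd36, a scavenger receptor, fell from 1931 and 1787 CPM to 354 and 295 CPM in WT (log2 fold change −2.52, SE 0.15). Itgav, an integrin chain used both in engulfment and by osteoclasts, rose from 104 and 105 CPM to 328 and 449.6 CPM (1.89, SE 0.19). Pros1, a bridging protein of Mertk, fell from 60.1 and 60.7 CPM to 38.1 and 35.4 CPM in WT. Of 17 complement genes, 3 rose and 3 fell in WT, and 4 rose and 3 fell in LysM-cKO. C3ar1 fell from 1040.2 and 951 CPM to 549 and 403 CPM in WT, and Cd55, an inhibitor of complement on cell surfaces, rose from 0.291 and 0.187 CPM to 4.39 and 6.17 CPM.

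LysM-cKO was compared with WT at each condition. Impdh2 was at 22.3 and 28.2 CPM in WT R0D3, 7.36 and 7.03 CPM in LysM-cKO R0D3, 25.7 and 27.7 CPM in WT R40D3 and 7.72 and 8.38 CPM in LysM-cKO R40D3. It was called lower at both, with log2 fold changes of −1.81 (SE 0.16) at R0D3 and −1.73 (SE 0.15) at R40D3. With any 1 of the 8 culture libraries left out Impdh2 was called at neither condition, while the value stayed between −1.97 and −1.63 at R0D3 and between −1.81 and −1.65 at R40D3. The R40D3 call was also lost with scaling by library size alone (−1.69), and both were lost with only the 4 compared libraries (−1.72 at R40D3 and −1.82 at R0D3). Of the 10 macrophage genes, 0 were called at R40D3 and 0 at R0D3, where 0.0143% of genes were called in each, and 2 and 0 of them had an unadjusted p under 0.05 (edgeR), against 1048 and 620 of all genes. DESeq2 called 0 of the 10 in either comparison. At R40D3 2 were higher (Adgre1 and Mertk) and 0 lower without overlap, where 19.7% of genes were higher and 18.9% lower. At R0D3 2 were higher (Pf4 and Mertk) and 4 lower (C1qa, C1qb, C1qc and Csf1r), where 17.5% were higher and 14.8% lower. The medians were −0.02 and −0.01. Within pairs of the same replicate number at R40D3, Csf1r (log2 ratios of −0.08 and −0.31), Pf4 (−0.23 and −0.21) and Slco2b1 (−0.43 and −1.10) were lower in both, and Mrc1 (0.50 and 0.13) and Laptm5 (0.03 and 0.0032) higher in both, although their groups overlapped. At R0D3 Slco2b1 (0.11 and 0.06) and Laptm5 (0.0017 and 0.0010) were higher in both pairs with overlapping groups. The fitted genotype value of Slco2b1 at R40D3 was −0.58 (SE 0.71), and that of Mrc1 was 0.35 (SE 0.26).

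At R40D3 Adgre1 was at 1093 ± 80.2 CPM in WT and 1361 ± 94.2 CPM in LysM-cKO (SD, n = 2), with a fitted log2 difference of 0.32 (SE 0.12). Mertk was at 147 ± 5.05 CPM in WT and 187 ± 13.1 CPM in LysM-cKO (SD, n = 2), with a fitted log2 difference of 0.35 (SE 0.09). Both were higher in each replicate, by log2 ratios of 0.31 and 0.32 for Adgre1 and 0.38 and 0.31 for Mertk. At R0D3 the values were −0.02 (SE 0.12) for Adgre1 and 0.10 (SE 0.09) for Mertk. Subtracting the genotype effect at R0D3 from that at R40D3 gave 0.34 (SE 0.17) for Adgre1, 0.24 (SE 0.13) for Mertk, −0.63 (SE 0.41) for Pf4 and −0.67 (SE 0.95) for Slco2b1. Leaving out LysM-cKO R40D3 replicate 1 took the Pf4 difference to −1.01 and that of Slco2b1 to −2.02. Leaving out WT R40D3 replicate 1 took them to −0.21 and 0.18. By that difference 0 of the 10 were called by edgeR, as were 0% of all genes, and 0 of the 10 had an unadjusted p under 0.05 against 248 genes in all. DESeq2 called 0 as well.

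Levels of other cell types differed among the culture libraries. Stromal markers, led by Col1a1 and Col1a2, summed to 508 and 433 CPM in LysM-cKO replicate 2 (R0D3 and R40D3) and to 1216 to 1618 CPM in the other 6 libraries. Neutrophil markers summed to 462 and 573 CPM in WT replicate 1 (R0D3 and R40D3) and to 112 to 284 CPM in the other 6. Osteoclast markers summed to 27986 and 40937 CPM in WT R40D3 and to 14383 and 26538 CPM in LysM-cKO R40D3. Without overlap, 9 of the 14 were lower in LysM-cKO and 0 higher, with 0 called. Over all genes tested at R40D3, 18.9% were lower and 19.7% higher. Lyz2, the gene of lysozyme M, belongs to the pan-myeloid genes and not to the markers of other cell types. It was at 29996 and 35255 CPM in WT R0D3 and at 15404 and 16856 CPM in LysM-cKO R0D3. Its log2 fold change there was −1.02 (SE 0.27), which edgeR did not call (adjusted p 0.997). Mean Lyz2 at R40D3 was 11537 CPM for LysM-cKO against 19642 CPM for WT, without overlap. The R40D3 log2 fold change was −0.77 (SE 0.27), also not called. LysM is named for this gene, and the part of the driver in these Lyz2 values was not tested. Across all 15 pan-myeloid genes the median at R0D3 was −0.08, with 2 higher and 5 lower in LysM-cKO without overlap. At R40D3 it was 0.10, with 4 higher and 2 lower. Over all genes tested, 17.5% were higher and 14.8% lower at R0D3, and 19.7% and 18.9% at R40D3. Lymphoid, mast and megakaryocyte markers each summed to at most 9.05 CPM in a culture library, with Cd3g, Mcpt4 and Tpsb2 at 0. The part of these levels in the values of the macrophage genes was not tested.

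**Figure D5:**
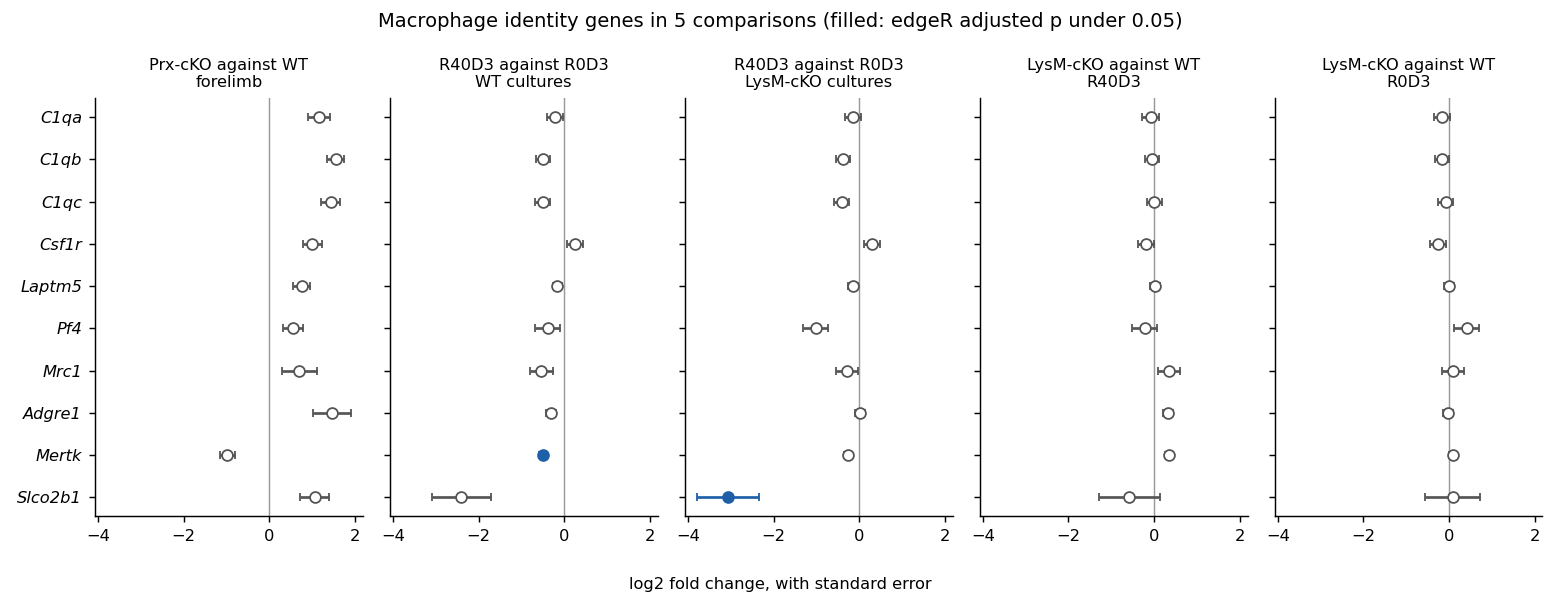
Log2 fold change with its standard error for each of the 10 genes in the 5 comparisons, with filled blue points for edgeR calls. The forelimb panel has 9 genes right of 0 and Mertk at −0.98, the R40D3 panels have Slco2b1 farthest left (−2.40 and −3.07), and the genotype panels run from −0.58 (Slco2b1 at R40D3) to 0.41 (Pf4 at R0D3).

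Over the 8 cultures the members' levels were compared with each other and with 9688 other genes of at least 5 CPM, by Pearson r of log2 CPM, as a description over libraries that share genotype, condition and replicate number. C1qb and C1qc varied most alike (r = 0.98), and Laptm5 and Slco2b1, Pf4 and Slco2b1, and C1qc and Slco2b1 were at 0.93, 0.93 and 0.94. Adgre1 was most like Mertk (0.87). Csf1r stood apart, with r from −0.68 with Mertk to 0.26 with C1qa. The 5 genes nearest to the mean of the 3 C1q genes were Ppp1r18 (0.993), Il18bp (0.987), Rab3il1 (0.981), Sap18 (0.979) and Crtc1 (0.978). Those nearest to Mrc1 were Ms4a14 (0.992), Zfp472 (0.991), Cd33 (0.989), Tcf4 (0.987) and Pag1 (0.983).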

How the data were processed

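RNA was sequenced from E12.5 forelimbs (4 libraries) and marrow cultures (8 libraries). The authors deposited whole-number read counts per Ensembl gene, in 1 table for the forelimb and 1 per replicate number for the cultures. FastQC 0.11.2, Trimmomatic 0.36, HISAT2 2.1.0, DESeq2 1.12.4 and the build GRCm38 are named in the submitters' processing notes, with no role given, and the counting tool and its use of strand are not given in the sources used here. RNA was taken with TRIzol and made into mRNA libraries, per the labels' protocols. There were 51826 gene identifiers for the forelimb and 55401 for the cultures, of which 51327 were shared, and symbols matched 99.6% and 99.5%.

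Counts were tested as deposited with edgeR 4.0.16 in R 4.3.3 (quasi-likelihood with legacy set to FALSE, TMM scaling, filterByExpr, two-sided, Benjamini-Hochberg over all genes, threshold of 0.05 on the adjusted p). Forelimb and culture libraries had separate fits, with all 8 cultures in 1. The SE is |log2 fold change| over the square root of F, and CPM use the scaled library sizes. Exon lengths came from GENCODE M21 and promoters from RefSeq. The fitting steps were tested on simulated data. Replicates differed by more than sampling noise, the ratio of chi-square to its degrees of freedom being 10.7 to 131. The labels number the replicates 1 and 2. In the cultures, deviations of same-numbered libraries correlated in all 6 pairs of groups (r 0.343 to 0.609) and each number was deposited as its own table, so the number was taken to pair them. The main fits compared group means without this pairing, so their calls and SE are unpaired. The replicate block used the pairing, as an alternative.

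The members and all 14 companion lists (174 genes) were chosen with earlier results of these data known. The genes named were the 10 members and Impdh2 in every comparison, up to 5 genes of each myeloid list with the smallest p and a mean of at least 1 CPM, the markers of other cells at 0 or most abundant, and the 5 genes most like C1q and most like Mrc1 in pattern. Csf1, Pros1, Axl and Tyro3 in the forelimb fell outside that rule and were named as partners or relatives of members after their values were seen. Alternatives were other scaling, no filter, DESeq2 1.42.0, the default quasi-likelihood method, a replicate block, only the compared cultures, and each library left out. One gene of the companion lists is not reported here by name.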

Additional observations from a re-analysis of the deposited data

How the results depend on the processing

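Having 2 libraries a group limits every value here, and low forelimb counts limit Adgre1 and Slco2b1 most. The number of members called moved as follows. In the forelimb (0 called) DESeq2 called 5, and leaving out 1 library gave 0 to 3. For R40D3 against R0D3 in WT cultures (1 called) it was 5 with every gene that had a count, 5 with DESeq2, 6 with the replicate block, 2 with only the 4 compared libraries, and 0 to 4 with 1 library left out. In LysM-cKO (1 called) it was 2 with DESeq2, 3 with the replicate block, 0 with only the 4 compared libraries and 0 to 2 with 1 library left out. No other alternative moved a count of members called by over 1.5 times, and the replicate block changed no other call of a member. Over all genes, DESeq2 called 393 in the forelimb, where edgeR called 0 and leaving out a library gave 0 to 603. The block gave 3977 genes in WT and 2983 in LysM-cKO for R40D3 against R0D3, against 2367 and 1422 without it. At R40D3 between genotypes, the block gave 30 genes, DESeq2 19 and library size alone 0, against 2. At R0D3 it was 7 with DESeq2, 3 with every gene that had a count, 3 with the block and 0 with only the 4 compared libraries, against 2. With only the 4 compared libraries 0 genes were called at R40D3 and 533 for R40D3 against R0D3 in LysM-cKO. Leaving out 1 library gave 689 to 2425 in WT and 399 to 1317 in LysM-cKO. In the forelimb, same-numbered libraries share only a number (r 0.261), and the block called 0 genes there. No member changed sign in the forelimb or for R40D3 against R0D3 in WT under any alternative run. Library size alone moved the forelimb median over all genes by −0.10 and that of the members to 0.93. Laptm5 between genotypes at R0D3 (0.0014) was −0.0033 with median-of-ratios scaling and with DESeq2, and −0.01 with every gene or only 4 libraries. With 1 library left out, signs changed for the following values. Between genotypes at R0D3 the range was −0.08 to 0.04 for Adgre1, −0.07 to 0.04 for Laptm5, −0.22 to 0.34 for Mrc1, −0.50 to 0.62 for Slco2b1, −0.07 to 0.52 for Coro1a and −0.49 to 0.07 for Csf2rb. At R40D3 it was −0.36 to 0.16 for C1qa, −0.27 to 0.14 for C1qb, −0.21 to 0.20 for C1qc, −0.61 to 0.19 for Pf4, −0.004 to 0.63 for Mrc1 and −1.93 to 0.27 for Slco2b1. For R40D3 against R0D3 in LysM-cKO it was −0.44 to 0.07 for C1qa and −0.05 to 0.06 for Adgre1, and in WT −0.08 to 0.26 for Impdh2. For the difference of the genotype effects it was −0.18 to 0.33 for C1qa, −0.09 to 0.31 for C1qb, −0.11 to 0.30 for C1qc, −0.12 to 0.31 for Csf1r, −0.03 to 0.09 for Laptm5, −0.09 to 0.57 for Mrc1, −2.02 to 0.18 for Slco2b1 and −0.10 to 0.24 for Impdh2. Where leaving out a library left a group with 1 sample, that sample was assumed to vary like the others. The cause of these moves was not tested.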
